A study of Mus musculus with 6 samples.

Results

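The genes described here are the 37 genes of the mouse mitochondrial genome, taken as every row of the count table whose GRCm38 symbol starts with mt-. They make up 37 of the 55487 genes in the table and hold 13 messages, 2 ribosomal RNAs and 22 transfer RNAs. RNA was sequenced from 3 libraries of wild-type 4T-1 cells, which are mouse mammary carcinoma cells, and from 3 libraries of 4T-1 cells in which Lyplal1, a gene for a lysophospholipase-like protein, was knocked out. All cells were untreated, and the series compares expression between the 2 genotypes. In the labels the knockout libraries carry a name with sg2, and the wild-type libraries carry a name with NC. What NC stands for is not explained there, so wild type may mean parental cells or cells kept as a control. Whether the knockout cells were a single clone or a pool is not given in the sources used here. Separate cultures are not named for the libraries, so each p-value measures the spread between these libraries, which may be technical.

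Mitochondrial DNA is a small circle read from both strands into long transcripts. Transfer RNAs lie between most of the other genes, and cutting them out frees the messages and ribosomal RNAs. Transcription needs the polymerase Polrmt with Tfam and Tfb2m, and the messages are then held by Lrpprc with Slirp and degraded by Pnpt1 with Supv3l1. The proteins made from these messages are subunits of respiratory complexes I, III and IV and of ATP synthase, and they are assembled with subunits encoded in the nucleus.

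3 stretches of the plus strand of chromosome M are printed because neighbours in them differed in their counts, with the transfer RNA between them in capitals. They come from the GENCODE M21 transcripts on GRCm38. The first spans chrM:965-1153 and ends the small ribosomal RNA mt-Rnr1, passes mt-Tv, the transfer RNA for valine, and starts the large ribosomal RNA mt-Rnr2. The second spans chrM:2616-2810 and runs from the end of mt-Rnr2 through mt-Tl1, a transfer RNA for leucine, into the start of mt-Nd1. The last spans chrM:15229-15422 and runs from the end of mt-Cytb through mt-Tt, the transfer RNA for threonine, into mt-Tp, the transfer RNA for proline, which is read from the opposite strand.
mt-Rnr1 to mt-Rnr2: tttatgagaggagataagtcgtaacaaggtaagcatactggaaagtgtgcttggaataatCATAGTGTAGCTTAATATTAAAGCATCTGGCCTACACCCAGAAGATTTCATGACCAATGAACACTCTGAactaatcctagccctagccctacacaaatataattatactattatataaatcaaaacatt
mt-Rnr2 to mt-Nd1: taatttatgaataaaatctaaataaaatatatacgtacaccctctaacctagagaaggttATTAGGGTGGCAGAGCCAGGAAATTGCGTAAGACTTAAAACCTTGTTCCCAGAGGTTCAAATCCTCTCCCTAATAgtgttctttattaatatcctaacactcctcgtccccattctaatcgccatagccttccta
mt-Cytb to mt-Tp: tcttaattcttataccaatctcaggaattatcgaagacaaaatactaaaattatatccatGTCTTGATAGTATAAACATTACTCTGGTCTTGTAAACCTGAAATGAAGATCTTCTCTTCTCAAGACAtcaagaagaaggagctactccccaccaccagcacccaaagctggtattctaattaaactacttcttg
No base separates the genes at these 3 junctions. The counts below place 0 reads on mt-Tv in all 6 libraries, while both of its neighbours hold many.

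Depth ran from 16731209 to 17108975 counts per library. The targeted gene Lyplal1 had 76, 73 and 68 counts in wild type against 54, 48 and 58 in knockout, a log2 fold change of -0.28 that missed the threshold (edgeR quasi-likelihood test, adjusted p = 0.0882), so the groups are named as their labels name them. The summed level of 6 markers of the line (keratins, Epcam, Cdh1 and Cldn7) was 3114 to 3189 CPM (counts scaled to a common library size, with TMM factors) in wild type against 1713 to 1732 CPM in knockout. Markers of leukocytes summed to 0.336 to 0.504 CPM in wild type against 2.13 to 18.2 CPM in knockout, those of endothelium to 0.056 to 0.223 and 0.875 to 5.73 CPM, and those of erythrocytes to 0 to 0.112 and 0.248 to 1.01 CPM. Knockout replicate 3 held the highest of these sums. The sum of 6 fibroblast and mesenchyme markers, most of it Vim, was 3235 to 3307 CPM in wild type against 760 to 801 CPM in knockout. Vim and Col1a1 were lower in knockout by mean CPM, while the other 4 were higher, Pdgfra at 64.5 and 169 CPM, Col1a2 at 0.112 and 0.838, Col3a1 at 0.0187 and 1.53 and Pdgfrb at 0 and 0.231. Without knockout replicate 3, all 20 mitochondrial genes then tested were called, 19 lower and 1 higher. Of all genes then tested, 10776 of 13328 were called, 5401 higher and 5375 lower. Transfer RNAs whose direction was fixed by the low-count filter are among the 20, and their calls add no support. The part of these markers in the results was not tested.

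Messages of the mitochondrial genome fell in knockout, and transfer RNAs with enough counts in both genotypes fell with them. The ribosomal RNAs parted, mt-Rnr1 rising and mt-Rnr2 falling slightly. Of the 37 genes, 23 had a count in some library and 14 had none. The low-count filter kept 19 of them, which were 7 messages, 2 ribosomal RNAs and 10 transfer RNAs. All 19 passed the test (edgeR quasi-likelihood, adjusted p under 0.05 over 13022 genes), 18 lower and 1 higher in knockout. In the same comparison 82.2% of all tested genes were called, 40.9% lower and 41.3% higher. A call by itself thus does not set these genes apart. For mt-Ta, mt-Tq, mt-Tm, mt-Te, mt-Tr, mt-Ts2 and mt-Tl2 the filter itself fixed the direction, so their calls add no support. The median log2 fold change was -2.41 for the 7 messages and -0.0019 for all tested genes. Because RNA was taken in bulk, fewer mitochondrial transcripts per cell and fewer cells with them cannot be told apart.

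**Figure D1:**
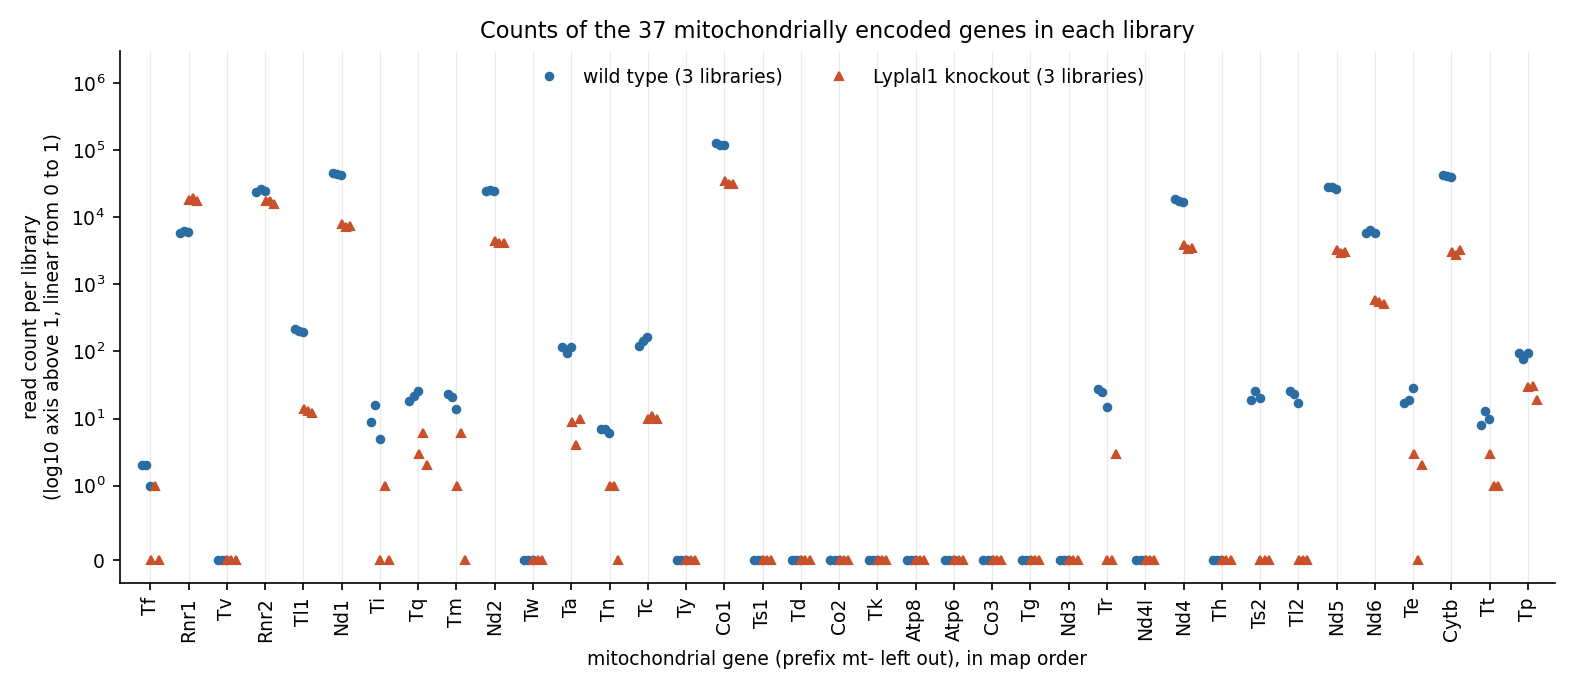
Read counts of the 37 mitochondrially encoded genes in map order (x axis) in each of 3 wild-type libraries (circles) and 3 Lyplal1 knockout libraries (triangles), on a log10 axis that is linear from 0 to 1. The 14 genes without a count sit at 0 in all 6 libraries, and mt-Rnr1 is the gene whose knockout libraries lie above the wild-type ones.

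Mitochondrially encoded genes gave 1.89%, 1.85% and 1.80% of all counts in wild type against 0.551%, 0.529% and 0.514% in knockout. The classes did not share this fall equally. Messages took 1.71%, 1.66% and 1.62% of all counts in wild type against 0.341%, 0.311% and 0.316% in knockout. Ribosomal RNAs took 0.175%, 0.191% and 0.177% in wild type against 0.210%, 0.218% and 0.198% in knockout. Every knockout library thus lay below every wild-type library for messages and above every one for ribosomal RNAs. The summed CPM of the messages was 4.69-fold higher in wild type, and that of the ribosomal RNAs was 1.26-fold higher in knockout. An exact two-sided permutation test gave p = 0.1 for each of these shares, the smallest value that 3 libraries against 3 allow.

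The 2 ribosomal RNAs form the cores of the small and large mitochondrial ribosome subunits, and their genes stand side by side at the start of the plus-strand transcript, parted by mt-Tv alone. mt-Rnr1 (ENSMUSG00000064337, chrM:70-1024, plus strand) had 5886, 6269 and 5943 counts in wild type against 17719, 19028 and 17660 in knockout. All knockout values were far above all wild-type values. Its level went from 338 ± 12.1 to 1134 ± 41.9 CPM (SD, n = 3 each), a log2 fold change of 1.75 ± 0.035 (SE, edgeR adjusted p = 1.35e-24). Only 604 tested genes, 4.64%, had a change as high or higher. mt-Rnr2 (ENSMUSG00000064339, chrM:1094-2675, plus strand) had 24045, 26330 and 24144 counts in wild type against 17352, 17456 and 15595 in knockout. The groups did not overlap, and the change was small, from 1389.9 ± 74 to 1050.1 ± 59.7 CPM (SD, n = 3 each), a log2 fold change of -0.40 ± 0.042 (edgeR adjusted p = 6.91e-08).

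The count of mt-Rnr1 divided by that of mt-Rnr2, which needs no scaling between libraries, was 0.245, 0.238 and 0.246 in wild type against 1.02, 1.09 and 1.13 in knockout. The ratio was thus 4.45-fold higher in knockout (exact permutation test, p = 0.1, the smallest possible). Per length, in the deposited TPM (counts per gene length, scaled to a common total), mt-Rnr1 stood at 0.403 ± 0.00714 of mt-Rnr2 in wild type and at 1.79 ± 0.093 of it in knockout (SD, n = 3 each). The order of the pair in TPM was therefore opposite in the 2 genotypes. RNAs of other kinds that carry no long poly(A) tail were counted too: the nuclear genes annotated as rRNA summed to 37, 38 and 44 counts in wild type against 41, 54 and 27 in knockout, and snoRNA genes to 523, 523 and 527 against 511, 534 and 500. Those 2 sums overlapped between the genotypes. Genes annotated as misc_RNA summed to 142, 129 and 128 counts against 110, 110 and 120, groups that did not overlap. How RNA was selected for the libraries is not given in the sources used here, and its part in the ribosomal RNA values was not tested.

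Ribosomal RNA counts over message counts were 0.102, 0.115 and 0.109 in wild type against 0.614, 0.700 and 0.628 in knockout. This ratio was 5.94-fold higher in knockout, a log2 difference of 2.57 (exact permutation test, p = 0.1, the smallest possible). With mt-Rnr2 alone, the ribosomal RNA that fell, the log2 difference was 1.83. Both ribosomal RNAs were therefore higher against the messages in knockout.

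**Figure D2:**
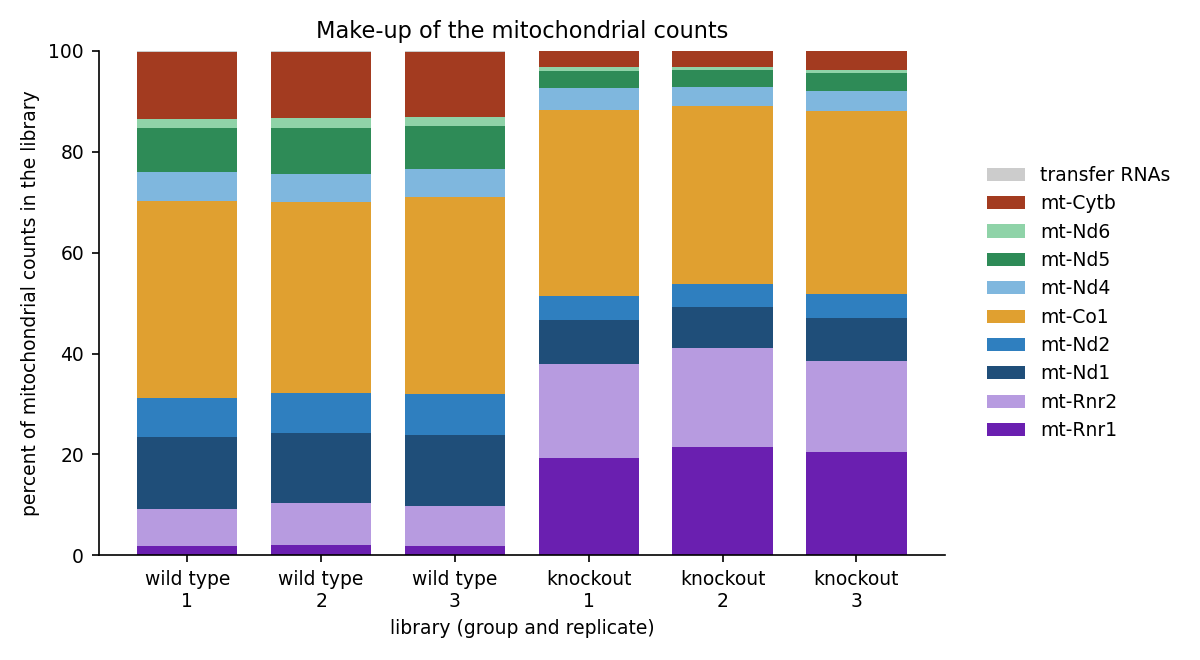
Stacked bars of the percent of mitochondrial counts (y axis) given by each ribosomal RNA, each counted message and all transfer RNAs together in each of the 6 libraries (x axis). The 3 knockout bars hold more mt-Rnr1 and less mt-Cytb, mt-Nd5 and mt-Nd6 than the 3 wild-type bars.

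The 7 counted messages were all lower in knockout, by amounts that ran from 3.38-fold for mt-Co1 to 12.4-fold for mt-Cytb. 5 of them encode subunits of complex I, the NADH dehydrogenase that passes electrons to ubiquinone. Together these 5 were 5.71-fold higher in wild type in CPM.

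mt-Nd1, the first message after the ribosomal RNAs (chrM:2751-3707), had 46101, 44207 and 43067 counts in wild type against 7940, 7166 and 7400 in knockout. Its log2 fold change was -2.41 ± 0.0377 (SE, edgeR adjusted p = 5.91e-26). The next message, mt-Nd2 (chrM:3914-4951), had 24785, 25047 and 24492 counts in wild type against 4434, 4055 and 4087 in knockout. It fell by 2.40 on the log2 scale (SE 0.0356, edgeR adjusted p = 1.84e-27). These neighbours kept their proportion: mt-Nd2 over mt-Nd1 was 0.538, 0.567 and 0.569 in wild type against 0.558, 0.566 and 0.552 in knockout, groups that overlap (exact permutation test, p = 1).

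mt-Nd4 (chrM:10167-11544) had 18377, 17660 and 16550 counts in wild type against 3876, 3343 and 3422 in knockout, a log2 fold change of -2.14 ± 0.0547 (edgeR adjusted p = 4.79e-13). mt-Nd5 (chrM:11742-13565) had 28025, 28539 and 26078 in wild type against 3249, 2919 and 3069 in knockout. It fell 8.01-fold (log2 fold change -3.00 ± 0.0422, edgeR adjusted p = 2.58e-24), and its groups stood well apart. mt-Nd6 (chrM:13552-14070), the message read from the minus strand, had 5891, 6482 and 5742 counts in wild type against 574, 542 and 506 in knockout. Its log2 fold change was -3.32 ± 0.0525, a 9.99-fold fall (SE, edgeR adjusted p = 2.08e-23).

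mt-Nd5 and mt-Nd6 meet end to end on opposite strands and share 14 bases. These ends are printed 5′ to 3′ on each gene's own strand, with the shared bases in capitals, because the strand setting of the counting is not given. mt-Nd5 is from chrM:13506-13565 (plus) and mt-Nd6 from chrM:13552-13611 (minus).
mt-Nd5 end: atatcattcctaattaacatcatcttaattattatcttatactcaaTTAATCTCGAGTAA
mt-Nd6 end: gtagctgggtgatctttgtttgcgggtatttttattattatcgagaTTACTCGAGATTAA
Reads of the pair cannot be told apart by strand from these counts. The count of mt-Nd6 over that of mt-Nd5 was 0.210, 0.227 and 0.220 in wild type against 0.177, 0.186 and 0.165 in knockout. The ratio was 1.25-fold higher in wild type (exact permutation test, p = 0.1, the smallest possible).

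mt-Co1, the catalytic subunit of complex IV (cytochrome c oxidase, chrM:5328-6872), was the message with the highest counts. It had 126362, 119318 and 119870 in wild type against 34075, 31309 and 31281 in knockout. Its fall was the smallest of the 7 messages, 1.76 on the log2 scale (log2 fold change -1.76 ± 0.0354, edgeR adjusted p = 2.35e-24). Across all tested genes, 961 (7.38%) fell as much or more. mt-Cytb, the cytochrome b of complex III (chrM:14145-15288), had 42902, 41520 and 39293 counts in wild type against 2971, 2770 and 3200 in knockout. It changed most among the messages, from 2307 ± 97.8 to 186 ± 14.6 CPM (SD, n = 3 each), a log2 fold change of -3.63 ± 0.05 (edgeR adjusted p = 1.45e-19). Only 240 tested genes (1.84%) had a change as low or lower.

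Unequal falls changed the make-up of the message pool. Of all mitochondrial message counts, mt-Co1 held 43.2%, 42.2% and 43.6% in wild type against 59.7%, 60.1% and 59.1% in knockout. mt-Cytb held 14.7%, 14.7% and 14.3% in wild type against 5.20%, 5.32% and 6.04% in knockout. The share of mt-Co1 was thus higher and that of mt-Cytb lower in every knockout library. mt-Nd5 went from a mean of 9.72% to 5.69% and mt-Nd6 from 2.13% to 1.0%. mt-Nd1 went from 15.7% to 13.9%, mt-Nd2 from 8.75% to 7.75% and mt-Nd4 from 6.18% to 6.55%. The groups did not overlap for any of the 7 messages, 2 higher and 5 lower in knockout. How many of all genes had groups that did not overlap was not counted. In the edgeR test 82.2% of tested genes were called. The 7 shares add up to the whole pool, so they are not independent, and messages without a count are not in it. Each of the 7 exact permutation tests gave p = 0.1, adjusted p = 0.1, the smallest possible. For mt-Nd4, whose share moved least, the exact permutation p was 0.2 without wild-type replicate 3 or without knockout replicate 1.

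mt-Cytb over mt-Co1 in counts was 0.340, 0.348 and 0.328 in wild type against 0.0872, 0.0885 and 0.102 in knockout, 3.66-fold higher in wild type. mt-Cytb over mt-Nd1 was 0.931, 0.939 and 0.912 in wild type against 0.374, 0.387 and 0.432 in knockout, 2.34-fold higher in wild type. Neither ratio had overlapping groups (exact permutation test, p = 0.1 for each, the smallest possible). The messages at the far end of the map thus fell more than those near its start, apart from mt-Co1 and mt-Nd4, which lie in the middle and fell least. Over the 8 plus-strand ribosomal RNAs and messages, map position and log2 fold change had a Spearman correlation of -0.786 and a Pearson correlation of -0.773. Over the 6 plus-strand messages alone they were -0.486 and -0.708. These are descriptions across genes that come from the same libraries and are cut from shared transcripts.

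**Figure D3:**
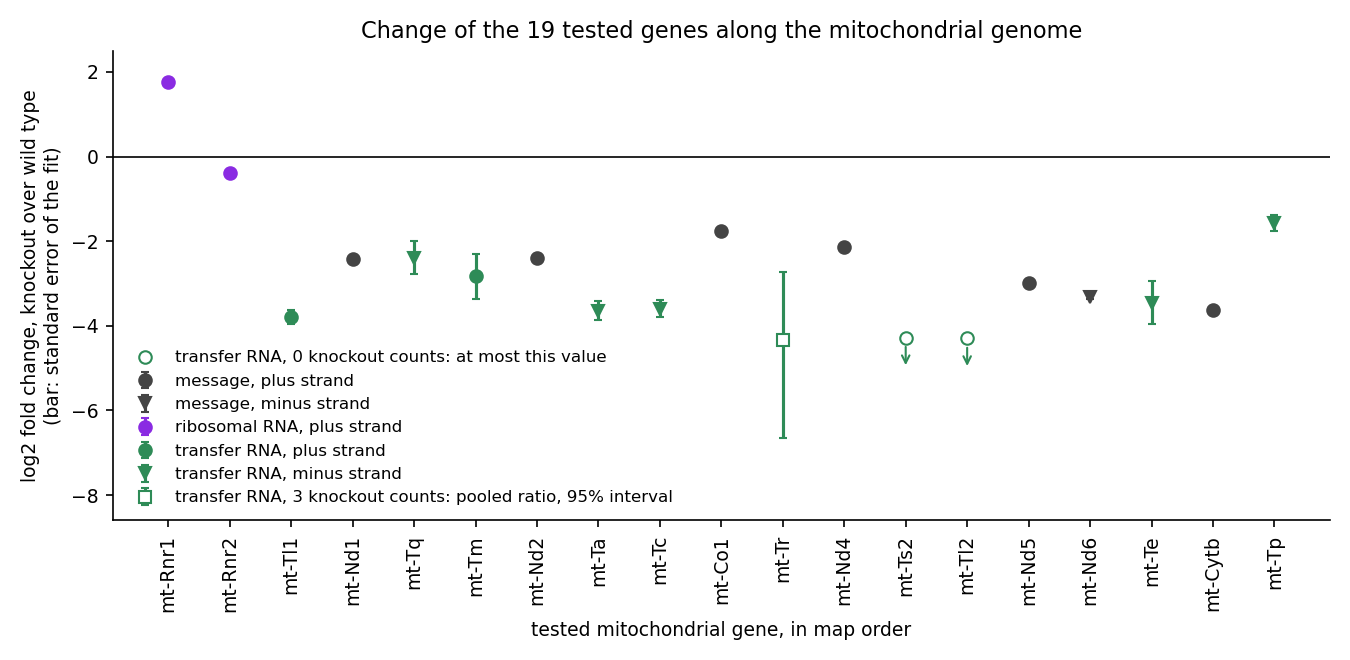
Log2 fold change of the 19 tested genes (y axis, knockout over wild type, bars are standard errors) in map order (x axis), coloured by class, with circles for the plus strand and triangles for the minus strand. mt-Ts2 and mt-Tl2 (open circles) had 0 knockout counts and are drawn at the highest value their floor of 3 counts allows, and mt-Tr (open square) is drawn at its pooled ratio with a 95% interval; mt-Rnr1 alone lies above 0.

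Per length, the order of levels differed between the genotypes. In wild type the mean TPM ran from mt-Co1 (18819) through mt-Nd1 (11086), mt-Cytb (8602), mt-Nd2 (5695), mt-Rnr2 (3747), mt-Nd5 (3604), mt-Nd4 (3036) and mt-Nd6 (2777) to mt-Rnr1 (1507). The libraries of mt-Rnr2 and mt-Nd5 overlapped, as did those of mt-Nd4 and mt-Nd6, so these neighbours are not ordered. In knockout it ran from mt-Co1 (4819) through mt-Rnr1 (4388), mt-Rnr2 (2455), mt-Nd1 (1811), mt-Nd2 (933), mt-Cytb (602), mt-Nd4 (595) and mt-Nd5 (390) to mt-Nd6 (241). There mt-Co1 overlapped mt-Rnr1, and mt-Cytb overlapped mt-Nd4. mt-Rnr1 thus moved from the lowest of these 9 levels to a level that overlapped that of mt-Co1. The levels of mt-Co1 and mt-Nd4 are less certain, since 51.1% and 62.2% of their 50-base windows also occur in nuclear transcripts. Messages without a count are not in this order.

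Transfer RNAs carry amino acids to the ribosome, and their genes of 59 to 75 bases gave few counts. How reads that span a transfer RNA and its neighbour were counted is not given in the sources used here. These counts therefore need not follow the levels of the transfer RNAs. The 22 together had 702, 685 and 712 counts in wild type against 74, 75 and 59 in knockout, 9.04-fold higher in wild type in CPM. Every knockout library lay below every wild-type library (exact permutation test, p = 0.1, the smallest possible). Against the messages of the same library they were also lower: transfer RNA counts over message counts were 0.00240, 0.00242 and 0.00259 in wild type against 0.00130, 0.00144 and 0.00111 in knockout. By strand, the 14 on the plus strand summed to 331, 324 and 276 counts against 18, 22 and 16, and the 8 on the minus strand to 371, 361 and 436 against 56, 53 and 43. These are 14.9-fold and 6.88-fold differences in CPM, and the difference between the strands was not tested. Single genes weigh heavily in these sums: mt-Tp gave 30, 31 and 19 of the minus-strand knockout counts, and mt-Tl1 gave 216, 198 and 194 of the plus-strand wild-type counts. The strand setting of the counting is not given, so the sums need not be reads of either strand.

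mt-Tl1, between mt-Rnr2 and mt-Nd1 in the second stretch printed above, had 216, 198 and 194 counts in wild type against 14, 13 and 12 in knockout. It was the transfer RNA with the most wild-type counts and fell 13.8-fold (log2 fold change -3.79 ± 0.159, edgeR adjusted p = 1.32e-17), more than mt-Rnr2 before it and mt-Nd1 after it. On the minus strand, mt-Ta (alanine) had 115, 94 and 116 counts against 9, 4 and 10, and mt-Tc (cysteine) had 120, 141 and 164 against 10, 11 and 10. Their log2 fold changes were -3.64 and -3.60. mt-Tp (proline), at the other end of the last stretch printed above, had 94, 78 and 95 counts in wild type against 30, 31 and 19 in knockout. It fell least of the tested transfer RNAs, 2.98-fold (log2 fold change -1.57 ± 0.182, edgeR adjusted p = 1.33e-08).

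The other tested transfer RNAs had at most 29 counts in any library. mt-Tq (glutamine) had 18, 22 and 26 against 3, 6 and 2, mt-Tm (methionine) 23, 21 and 14 against 1, 6 and 0, and mt-Te (glutamate) 17, 19 and 29 against 3, 0 and 2. mt-Tr (arginine) had 28, 25 and 15 against 0, 0 and 3, a pooled ratio of 20.3 on the CPM scale (95% interval 6.66 to 101, counting error only). mt-Ts2 (serine) had 19, 26 and 20 against 0 in every knockout library, at least 19.4-fold higher in wild type on the CPM scale with a floor of 3 counts over the group. mt-Tl2 (leucine) had 26, 23 and 17 against 0, at least 19.7-fold higher. These 6 and mt-Ta passed the filter through their wild-type counts, so their direction was fixed by the filter and their calls add no support. mt-Tf, mt-Ti, mt-Tn and mt-Tt had 1 to 16 counts per wild-type library and 0 to 3 per knockout library and were not tested.

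No library had a count for 6 messages (mt-Co2, mt-Atp8, mt-Atp6, mt-Co3, mt-Nd3 and mt-Nd4l) or for 8 transfer RNAs (mt-Tv, mt-Tw, mt-Ty, mt-Ts1, mt-Td, mt-Tk, mt-Tg and mt-Th). A count of 0 at these depths allows up to 0.189 CPM in a library, and covers counting error only. These messages encode subunits of complex IV, ATP synthase and complex I. Of the 14 genes, 10 lie in a stretch of chromosome M met by a run of near-identical gene models on nuclear chromosome 1. Copies were aligned for mt-Co2, mt-Atp6, mt-Co3, mt-Nd3 and mt-Nd4l, while mt-Atp8, mt-Ts1, mt-Td, mt-Tk and mt-Tg lie mostly or wholly between the aligned parts.

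Aligned to the other GENCODE M21 transcripts, mitochondrial positions 6390 to 11042 met a run of 7 gene models at chr1:24611535-24616197 (GRCm38, minus strand), with 2 mismatches in 4140 aligned bases. Only long chromosome 1 alignments without gaps and nearly free of mismatches were kept for this run. Its near-identity thus follows in part from that choice. Of the 11 mitochondrial genes wholly inside this stretch, 10 had no count. The exception was mt-Tr, which had 68 counts over wild type and 3 over knockout. Of the 26 others, 4 had no count (mt-Tv, mt-Tw, mt-Ty and mt-Th), and mt-Co1 and mt-Nd4 reach into the stretch with part of their length. The start of mt-Nd3, at chrM:9459-9518 (plus), and the start of its copy Gm28438, at chr1:24613060-24613119 (minus), are printed to show how alike they are, with the base that differs in capitals. The substitution is T3C, counted from 1 at the 5′ end of mt-Nd3.
mt-Nd3 start: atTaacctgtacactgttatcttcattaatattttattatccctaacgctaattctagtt
Gm28438 start: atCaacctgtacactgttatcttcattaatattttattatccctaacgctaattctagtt
The member has no counts and its copy has few: Gm28438 had 77, 62 and 53 in wild type against 7, 3 and 4 in knockout. Over the 7 copies the counts summed to 232 in wild type against 19 in knockout. The copies of mt-Co2 and mt-Atp6, Gm28661 and Gm10925, had 11 and 18 counts over wild type and 3 and 1 over knockout.

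The share of 50-base windows of a gene found letter for letter in a nuclear transcript was 100% for mt-Co2, 99.5% for mt-Atp6, 99.9% for mt-Co3, 98.0% for mt-Nd3 and 98.8% for mt-Nd4l. It was 62.2% for mt-Nd4 and 51.1% for mt-Co1, 8.19% for mt-Nd2, 7.61% for mt-Nd5 and 1.04% for mt-Rnr2. For mt-Rnr1, mt-Nd1, mt-Nd6, mt-Cytb and mt-Atp8 it was 0. mt-Atp8 had no count and no such window, but it lies inside the stretch, mostly between the parts aligned to Gm28661 and Gm10925. The bases between the nuclear gene models were not searched, so its 0 does not show that it lacks a nuclear copy. The same holds for mt-Ts1, mt-Td, mt-Tk, mt-Tg and mt-Tr, which had no such window either. How the counting treated reads that map to several places is not given in the sources used here, and its part in the zeros was not tested. The TPM of mt-Co1 and mt-Nd4, divided by full length, are less certain as levels than those of genes without such windows.

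**Figure D4:**
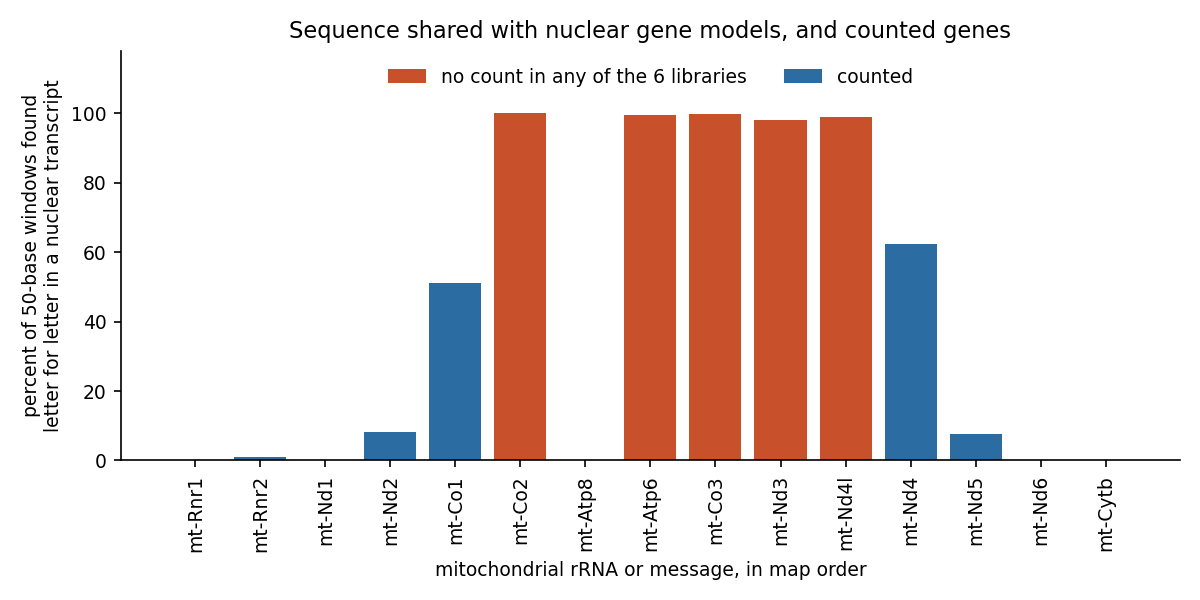
Percent of 50-base windows of each mitochondrial ribosomal RNA and message (x axis, map order) that occur letter for letter in a nuclear transcript (y axis), coloured by whether the gene had a count in any of the 6 libraries. The 5 genes at 98.0% or above had no count, as did mt-Atp8 at 0, and the counted genes lie at 62.2% or below.

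Nuclear genes that serve mitochondrial DNA are read against all tested genes, of which 41.3% were called higher and 40.9% lower in knockout. Of 11 tested genes of mitochondrial transcription, 3 rose, 4 fell and 4 were not called (median log2 fold change -0.03). Among those that fell, Mterf1b had 12, 11 and 11 counts in wild type against 3, 6 and 4 in knockout. It passed the filter through its wild-type counts, so its call adds no support. Tfam, which packages mitochondrial DNA and starts transcription, had 741, 789 and 743 counts in wild type against 525, 551 and 534 in knockout, and fell from 42.4 ± 1.57 to 33.5 ± 0.704 CPM (SD, n = 3 each, edgeR adjusted p = 3.86e-06). The polymerase Polrmt had a log2 fold change of 0.10 (edgeR adjusted p = 0.125) and the elongation factor Tefm of -0.19 (adjusted p = 0.0818), neither called. The initiation factor Tfb2m rose by 0.28 on the log2 scale (edgeR adjusted p = 0.0449), close to the threshold, and Mrpl12, a ribosomal protein that also binds the polymerase, by 0.78.

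Of 14 genes of replication and maintenance, 6 rose, 3 fell and 5 were not called (median 0.13), where 41.3% of all tested genes rose and 40.9% fell. The polymerase Polg was not called (log2 fold change 0.03, edgeR adjusted p = 0.567). The helicase Twnk fell by 0.75 on the log2 scale and the topoisomerase Top1mt rose by 1.60, and their exons share bases with Mrpl43 and Gm15945, so their reads could be split.

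Of 21 genes of mitochondrial RNA processing, stability and decay, 14 rose, 4 fell and 3 were not called (median 0.45), beside the same 41.3% and 40.9%. Pnpt1, the polynucleotide phosphorylase that degrades mitochondrial RNA, had 802, 850 and 845 counts in wild type against 2157, 2255 and 2119 in knockout. It rose from 46.6 ± 1.58 to 136 ± 3.54 CPM (SD, n = 3 each; log2 fold change 1.55 ± 0.0436, edgeR adjusted p = 2.37e-21). Its partner helicase Supv3l1 rose by 0.45. Lrpprc, which binds and stabilises the messages, had 1982, 2132 and 2067 counts in wild type against 3546, 3562 and 3474 in knockout and rose by 0.94 (edgeR adjusted p = 3.29e-18). Its partner Slirp, with at most 19 counts in a library, was not called (0.46, adjusted p = 0.153). Fastkd5, needed to mature messages that no transfer RNA flanks, fell by 2.72 on the log2 scale from 48, 58 and 58 counts to 8, 10 and 4, and shares exon bases with Ubox5. It passed the filter through its wild-type counts, so its direction was fixed by the filter and its call adds no support.

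Nuclear subunits of the complexes mostly rose while the mitochondrial messages for the same complexes fell. Over the 5 subunit lists, 59 of 76 tested genes rose, 8 fell and 9 were not called. Of all tested genes, 41.3% rose and 40.9% fell. For complex I, 33 of 36 rose, 1 fell and 2 were not called (median 0.61), against 5 of 5 tested mitochondrial messages that fell. Ndufb9 rose by 1.27 on the log2 scale and Ndufv3 fell by 0.57. For complex III, 6 of 9 rose and 2 fell (median 0.51), with Uqcrc2 up by 0.76 and Uqcrh down, at a log2 fold change of -1.29, beside mt-Cytb at -3.63. For complex IV, 7 of 11 rose and 2 fell (median 0.42), with Cox8a at 0.65 and Cox7a2 at -0.41, beside mt-Co1 at -1.76. For ATP synthase, whose mitochondrial messages had no count, 10 of 16 rose and 2 fell (median 0.28), with Atp5g1 at 1.68 and Atp5l at -0.49. This list also holds an inhibitor of the enzyme, which is not a subunit and was among the genes that fell. Complex II, which has no mitochondrially encoded subunit, had 3 of 4 higher and 1 lower (median 0.43), with Sdhb at 0.84 and Sdhd at -0.14 (edgeR adjusted p = 0.0383). Polg, Supv3l1, Slirp, Ndufb9, Uqcrc2 and Atp5l also share exon bases with another annotated gene, so the split of their reads is uncertain.

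**Figure D5:**
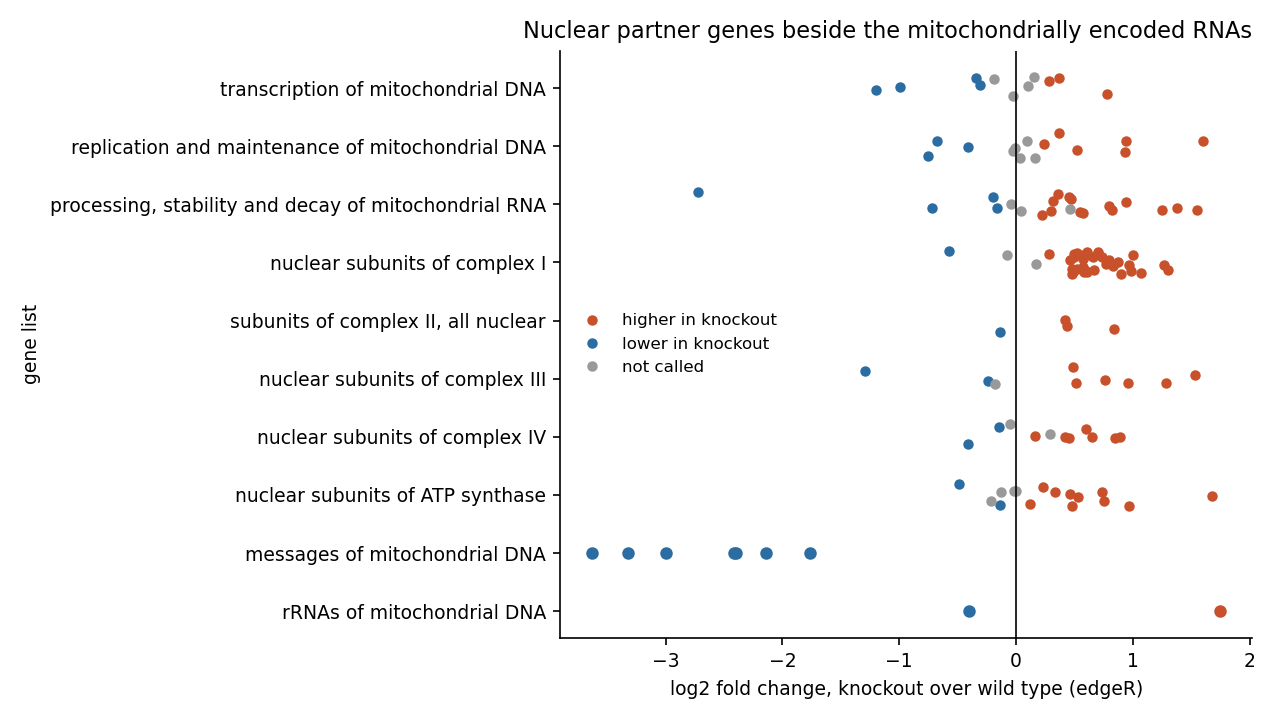
Log2 fold change, knockout over wild type (x axis), of each tested gene in 8 lists of nuclear partner genes and of the counted messages and ribosomal RNAs of mitochondrial DNA (y axis). Points are genes, coloured by the edgeR call; the 7 messages lie at -1.76 or below, and most nuclear subunits lie above 0.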

How the data were processed

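RNA from 3 wild-type and 3 Lyplal1 knockout libraries of 4T-1 cells was compared. The labels' protocols state Trizol extraction and a DNBseq quantification library. STAR 2.7.8a, featureCounts 2.0.1 and GRCm38 are named in the submitters' processing notes. No source used here gives strand or multi-mapping settings, read length or annotation release. For 55487 genes, the authors deposited TPM and raw counts, and the 12 per-library files held the same values as the whole-series tables. Symbols and positions are from GENCODE M21, matched for 55227 genes.

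Counts were tested with the quasi-likelihood F test of edgeR 4.0.16 (R 4.3.3, TMM factors, default low-count filter, Benjamini-Hochberg over 13022 genes, adjusted p under 0.05, two-sided). On simulated data for this comparison over 13022 genes, 78% of 100 genes changed 1.5-fold and 89% of 100 changed 2-fold were recovered, with 15 false calls. No other genes were changed there, while 82.2% of tested genes were called in the real data. These rates therefore need not hold for the real data. Shares and ratios per library used exact permutation tests (SciPy 1.17.1), and single ratios an exact 95% interval. Members were aligned to the other GENCODE M21 transcripts with BLAST+ 2.17.0, since no genome sequence of this build was used here.

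The genes named are all 37 members, the nuclear gene models of the chromosome 1 run, Polrmt, Tfam, Tfb2m, Tefm, Lrpprc, Slirp, Pnpt1, Supv3l1 and Polg, and from each of 8 partner lists the called rise and the called fall with the smallest adjusted p. Mterf1b is named for its low knockout counts. Runs of copies on other chromosomes were not compared with the chromosome 1 run. The members and lists were chosen with earlier results of these data known. Atp5pb, listed with ATP synthase, was not found by that symbol. Alternatives were other scaling factors, filters, library sizes and tools (DESeq2 1.42.0, limma 3.58.1), log2 of TPM plus 1 or 0.1, a replicate block and leaving out each library.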

Additional observations from a re-analysis of the deposited data

How the results depend on the processing

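All 19 tested members kept their direction under the alternatives that tested them. They were called under each of these except on log2(TPM + 0.1), where mt-Tm (limma adjusted p = 0.093) and mt-Te (adjusted p = 0.0741) were not, leaving 17. The default filter fixed the direction of mt-Ta, mt-Tq, mt-Tm, mt-Te, mt-Tr, mt-Ts2 and mt-Tl2, so calls of these that rest on it add no support. The count of members called was 22 of 23 without the filter and with DESeq2. It was 15 of 15 at 1 CPM in 3 libraries and 19 to 20 when a library was left out. Of all genes, 12030 of 27543 were called without the filter, 10272 of 27543 with DESeq2 and 10233 of 12155 at 1 CPM. When a library was left out, 10504 to 10776 genes were called. At 1 CPM, mt-Tl1, mt-Tc, mt-Ta, mt-Tq and mt-Ts2 passed through their wild-type counts, so their calls there add no support. Scaling by library totals alone moved the median of all genes by -0.13 on the log2 scale and the calls from 5378 higher and 5329 lower to 4616 higher and 6210 lower. Limma on log2(TPM + 1), which changes the tool and the measure too, moved them by -0.19 and to 4125 higher and 6598 lower. mt-Rnr1 stayed higher under both. Across settings mt-Rnr1 ran from 1.54 to 1.77, mt-Rnr2 from -0.61 to -0.35 and mt-Cytb from -3.84 to -3.57. Listed partner genes called lower numbered 19, but 29 with upper-quartile factors and 31 on log2(TPM + 1), and 15 to 22 when a library was left out. Fastkd5 and Mterf1b are among the 19, with a direction that the default filter fixed. The fall in the share of counts was 1.29 to 1.34 percentage points when a library was left out, and 4.48 percentage points in TPM. The log2 difference of ribosomal RNA over messages was 2.51 to 2.61 when a library was left out and 2.9 in TPM. Same-numbered libraries did not deviate together (correlations -0.00731, 0.0416 and 0.0134), so they share only a number. With a replicate block, 10789 genes were called against 10707, and 19 members, 82 partner genes higher and 21 lower. Shares over messages that overlap no other gene could not be run, since only mt-Cytb has no overlap. A version with overlaps of at most 3 bases, chosen after seeing the data, could be run for mt-Nd1, mt-Nd2, mt-Co1 and mt-Cytb only and kept their directions. Low counts limit the transfer RNAs, many of which had under 30 counts per library, and the part of the counting settings in this was not tested.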
